A study of Homo sapiens with 2 samples.

Results

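The 9 genes described here, HLA-B, HLA-C, HLA-E, B2M, TAP1, TAP2, TAPBP, PSMB8 and PSMB9, carry out MHC class I antigen presentation. They were taken by symbol, and all 9 were found among the 22474 genes of the deposited count tables. The tables hold single cells of H9, an established human embryonic stem cell line, labelled as Smart-seq2, a protocol that copies and amplifies polyadenylated RNA without molecular barcodes. The labels also name a column kit for total RNA, and how that applies to single cells was not resolved. The 25 feeder-free extended pluripotent stem cells (ffEPSCs) had been converted from H9 embryonic stem cells (ESCs), and the 16 ESCs are the starting state. Both states come from the same cell line, and each state is 1 deposited sample. The states therefore could not be tested against each other, and every value below describes these cells. The sources used here do not give the culture media, the passage or the number of cultures behind each state.

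MHC class I molecules show peptides from inside the cell to CD8 T cells and are also read by natural killer cells. The proteasome cuts proteins into peptides, the TAP transporter moves them into the endoplasmic reticulum, and tapasin helps load them onto a heavy chain held by beta-2-microglobulin. Pluripotent cells are known for low class I levels, and interferon gamma is the textbook inducer of the pathway, including the inducible proteasome subunits PSMB8 and PSMB9 that replace standard catalytic subunits.

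Of the 9 genes, 8 lie on chromosome 6 in the MHC region and B2M lies on chromosome 15. The most marked differences between the states fell in a short stretch of the region where PSMB8, PSMB9 and TAP1 sit side by side. The promoter windows of these genes are printed because PSMB9 and TAP1 face away from each other there, with RefSeq start sites 488 bases apart. The window of B2M is shown as the member outside the region, and that of HLA-C as a heavy chain. RefSeq windows (GRCh38.p14, 250 bases before to 50 after a start site) were at hand for 8 of the 9 genes, HLA-E being the other. Capitals mark matches on either strand to the core of the interferon-stimulated response element, to the gamma-activated site TTCNNNGAA and to a loose NF-kappa B pattern. Matches that touch or overlap run together.
PSMB9, chr6:32853942-32854241, plus strand: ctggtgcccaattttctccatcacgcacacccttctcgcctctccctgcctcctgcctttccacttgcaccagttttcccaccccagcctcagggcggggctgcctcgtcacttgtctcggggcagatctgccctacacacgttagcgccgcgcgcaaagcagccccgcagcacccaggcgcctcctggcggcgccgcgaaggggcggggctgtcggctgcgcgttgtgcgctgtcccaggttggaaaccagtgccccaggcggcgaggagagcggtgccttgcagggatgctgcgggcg
TAP1, chr6:32853655-32853954, minus strand: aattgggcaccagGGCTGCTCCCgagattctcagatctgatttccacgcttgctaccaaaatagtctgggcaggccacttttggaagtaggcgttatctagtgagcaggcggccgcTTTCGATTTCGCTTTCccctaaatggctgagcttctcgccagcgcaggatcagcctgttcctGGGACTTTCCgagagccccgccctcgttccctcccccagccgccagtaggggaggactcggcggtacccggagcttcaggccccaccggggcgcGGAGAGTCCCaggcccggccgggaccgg
PSMB8, chr6:32843998-32844297, minus strand: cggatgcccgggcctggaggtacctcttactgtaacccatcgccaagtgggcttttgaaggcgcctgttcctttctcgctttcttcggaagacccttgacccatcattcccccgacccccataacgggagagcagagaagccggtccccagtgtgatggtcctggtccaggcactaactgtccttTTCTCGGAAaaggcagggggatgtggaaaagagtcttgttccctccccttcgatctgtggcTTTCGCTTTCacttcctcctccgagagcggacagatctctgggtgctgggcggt
B2M, chr15:44711267-44711566, plus strand: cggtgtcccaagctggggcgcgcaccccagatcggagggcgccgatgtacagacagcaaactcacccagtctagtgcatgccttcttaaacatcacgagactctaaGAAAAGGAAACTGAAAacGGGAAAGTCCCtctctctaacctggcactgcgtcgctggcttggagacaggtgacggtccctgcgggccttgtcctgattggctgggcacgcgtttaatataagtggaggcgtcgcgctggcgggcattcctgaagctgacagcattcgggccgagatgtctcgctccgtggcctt
HLA-C, chr6:31272043-31272342, minus strand: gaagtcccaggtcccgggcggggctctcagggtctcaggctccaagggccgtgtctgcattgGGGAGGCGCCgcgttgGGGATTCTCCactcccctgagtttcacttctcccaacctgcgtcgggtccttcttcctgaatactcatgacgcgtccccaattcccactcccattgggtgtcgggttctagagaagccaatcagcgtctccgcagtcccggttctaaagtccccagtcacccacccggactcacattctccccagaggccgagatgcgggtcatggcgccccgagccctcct

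The interferon-stimulated core was found in 5 of the 10 windows of the 8 genes (B2M, TAP1, TAP2, TAPBP and PSMB8), while 3.57% of all 35116 windows hold it. The counts below are of genes, and a gene with 2 windows could match in either, while the shares are per window. The gamma-activated pattern was found in windows of PSMB8 and TAP1 (7.66% of all windows) and the NF-kappa B pattern in windows of 5 genes (25.6% of all windows). The full cyclic AMP response element TGACGTCA was in 0 of the 8 genes' windows (1.85% of all windows), its first letters TGACG were in windows of 6 genes (24.6%), and CCAAT was in windows of 5 genes (34.6%). PSMB9, which had no count in ffEPSCs, held none of the first 3 patterns in its own window, whose first 13 bases lie inside the TAP1 window. These matches describe letters only, and PSMB8 and TAP1 each have a further window with a different start site. For TAP1 that window holds the gamma-activated match, and for PSMB8 it holds none of the first 3 patterns.

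Most of the 9 genes had lower values in ffEPSCs, and the inducible proteasome and peptide transport genes PSMB8, PSMB9 and TAP1 showed the large differences. Levels are counts summed over a state's cells per 1000000 gene counts (CPM), and log2 ratios are ffEPSC over ESC after adding 1 CPM. At a floor of 5 CPM in at least 1 state, 7 of the 9 genes were measured, with PSMB9 and TAP2 below it. Of the 7, 6 had a lower value in ffEPSCs, as did 47.1% of all 10825 genes at that floor. A difference of 2-fold or more was seen in 2 toward lower (5.84% of all genes at the floor) and in 0 toward higher (8.30%). In 0 of the 7 did all ffEPSC cells lie above all ESC cells (0.102% of all genes). The median log2 ratio of the 7 was -0.51, beside 0.04 over all 10825 genes. TAP1 and PSMB8 reached the floor through ESCs alone, so the floor favours a lower call for these genes.

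PSMB8 encodes the inducible chymotrypsin-like subunit that takes the place of PSMB5 in the immunoproteasome (chromosome 6, 32840717 to 32844703, minus strand, GENCODE 29 on GRCh38). PSMB8 stood at 1.49 CPM in ffEPSCs (95% counting interval 1.37 to 1.62) and 32.0 CPM in ESCs (31.3 to 32.7), a 21.5-fold difference and a log2 ratio of -3.73. Across cells it ran from 0 over a median of 0 to 10.5 CPM in ffEPSCs, and from 0 over 28.6 to 72.2 CPM in ESCs. The states barely overlapped: 14 of the 16 ESC cells lay above every ffEPSC cell, and all 25 ffEPSC cells lay below the ESC median. A count was seen in 8 of 25 ffEPSC cells and 15 of 16 ESC cells, and the numbers were the same after thinning each cell to 11000000 counts. Of the 10825 genes, 0.203% had a log2 ratio as low. Cells carry a set number whose meaning the sources used here do not give, and only sets 1 and 3 hold both states. The PSMB8 log2 ratio was -5.46 within set 1 (3 ffEPSC and 7 ESC cells) and -4.53 within set 3 (2 ffEPSC and 9 ESC cells). ESC cells themselves differed between sets, with a log2 ratio of -1.0 for set 3 over set 1. Both ffEPSC cells of set 3 had 0 counts of PSMB8, PSMB9 and TAP1, so the ratios of these genes within that set depend on the added CPM.

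PSMB9, the inducible subunit that replaces PSMB6, had 0 counts in the 25 ffEPSC cells and 700 counts in the ESC cells (chromosome 6, 32844136 to 32859585, plus strand). A count of 0 allows up to 0.00802 CPM in ffEPSCs, against 2.64 CPM in ESCs (2.45 to 2.84), so it was at least 329-fold lower when a limit of 3 counts over the pooled ffEPSC cells is taken for the 0. That bound treats counts as independent, and it would be smaller if both mates of a fragment were counted. In ESCs the reads came from 7 of 16 cells, at 4.21 to 8.93 CPM, and the other 9 had none. Its absence was thus shared with a good part of the ESC cells, of which 43.8% had a count, beside 0 of 25 ffEPSC cells. The cells of a state are 1 sample, so these shares describe the cells only. All 7 PSMB9-positive ESC cells also had PSMB8 counts, and 6 of them had TAP1 counts.

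TAP1 encodes one chain of the peptide transporter and shares its upstream stretch with PSMB9 (chromosome 6, 32845209 to 32853978, minus strand). It was at 2.98 CPM in ffEPSCs (2.81 to 3.16) and 10.3 CPM in ESCs (9.96 to 10.7), with a log2 ratio of -1.51. Single cells ran from 0 over a median of 0 to 15.4 CPM in ffEPSCs and from 0 over 10.2 to 35.1 CPM in ESCs. The states overlapped, with 6 ESC cells above every ffEPSC cell, and counts in 9 of 25 ffEPSC cells and 12 of 16 ESC cells. Counts of both TAP1 and PSMB8 were seen in 2 of 25 ffEPSC cells and 11 of 16 ESC cells, numbers that also depend on how often each gene was detected alone. The log2 ratio was -1.16 within set 1 and -3.53 within set 3. TAP2, the other chain of the transporter (32821833 to 32838780, minus strand), was hardly read in either state, at 0.374 CPM in ffEPSCs from 3 cells and 0.279 CPM in ESCs from 1 cell. The TAP2 values cannot give a direction.

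**Figure D1:**
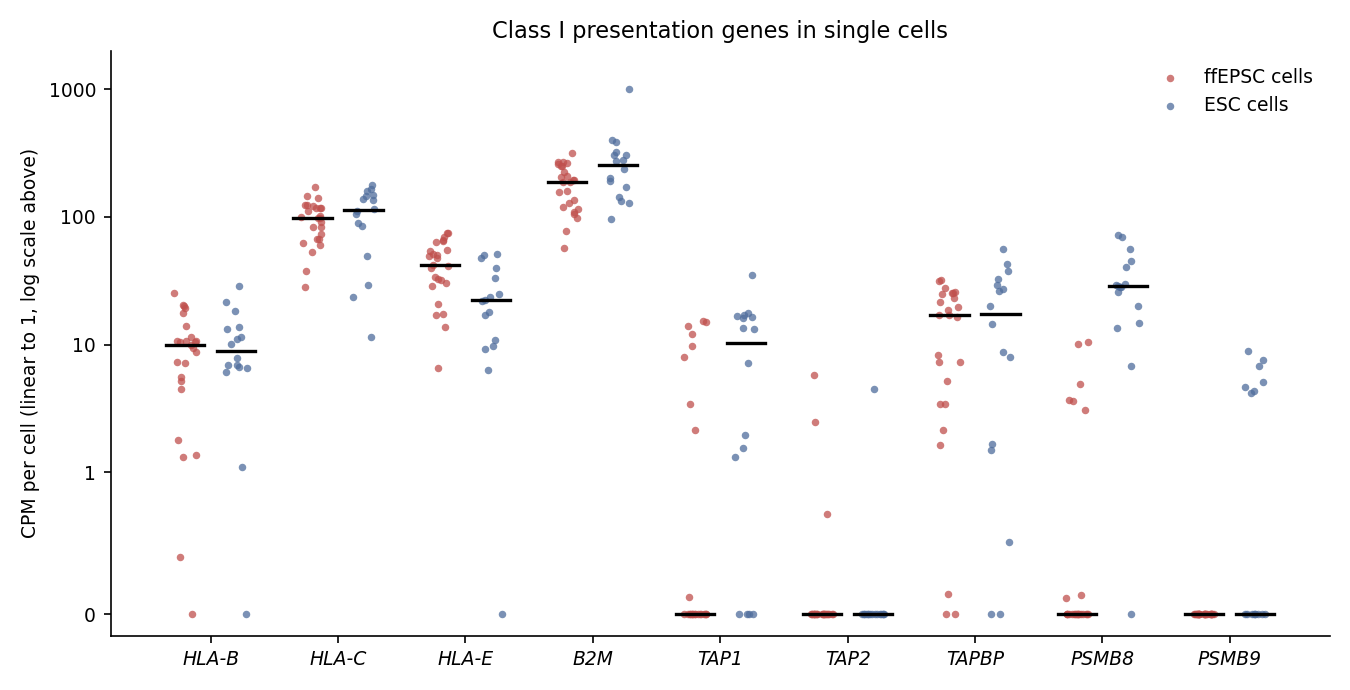
Each point is the CPM of a gene in a cell (vertical axis, linear up to 1 and logarithmic above), with ffEPSC cells left of ESC cells and a black bar at the median of each state. PSMB8 is at 0 in 17 of 25 ffEPSC cells and 1 of 16 ESC cells, PSMB9 is at 0 in all ffEPSC cells, and HLA-B, HLA-C and TAPBP overlap broadly.

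The standard catalytic subunits had like levels in both states. PSMB5 was at 1077 CPM in ffEPSCs and 1123 CPM in ESCs (log2 ratio -0.06), PSMB6 at 573 CPM in ffEPSCs and 683 CPM in ESCs (-0.25), and PSMB7 at 583 CPM in ffEPSCs and 566 CPM in ESCs (0.04). The remaining inducible subunit PSMB10, which replaces PSMB7 and lies outside the MHC region, was low in both, at 0.791 CPM in ffEPSCs and 1.16 CPM in ESCs. Per kilobase of merged exons, PSMB8 made up 0.0812% of the PSMB8 and PSMB5 pair in ffEPSCs and 1.65% in ESCs. PSMB9 made up 0% of its pair with PSMB6 in ffEPSCs and 0.182% in ESCs, and PSMB10 made up 0.131% of its pair with PSMB7 in ffEPSCs and 0.197% in ESCs. The standard subunits were therefore by far the more abundant transcripts in both states. With the length of the principal transcript instead of merged exons, a choice made after seeing the data, the PSMB8 share was 0.159% in ffEPSCs and 3.18% in ESCs. All 13 measured genes of the standard 20S core stayed within 2-fold, with a median log2 ratio of -0.25 and values from -0.56 (PSMA4) to 0.16 (PSMA6). The median was 0.01 when 4 ESC cells with little POU5F1 were left out, which are described further on. In the list of PSMB10 and the proteasome activators and assembly factor, 5 of 6 genes were measured and all stayed within 2-fold (median 0.00), among them the interferon-inducible activator subunits PSME1 (0.00) and PSME2 (0.19).

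**Figure D2:**
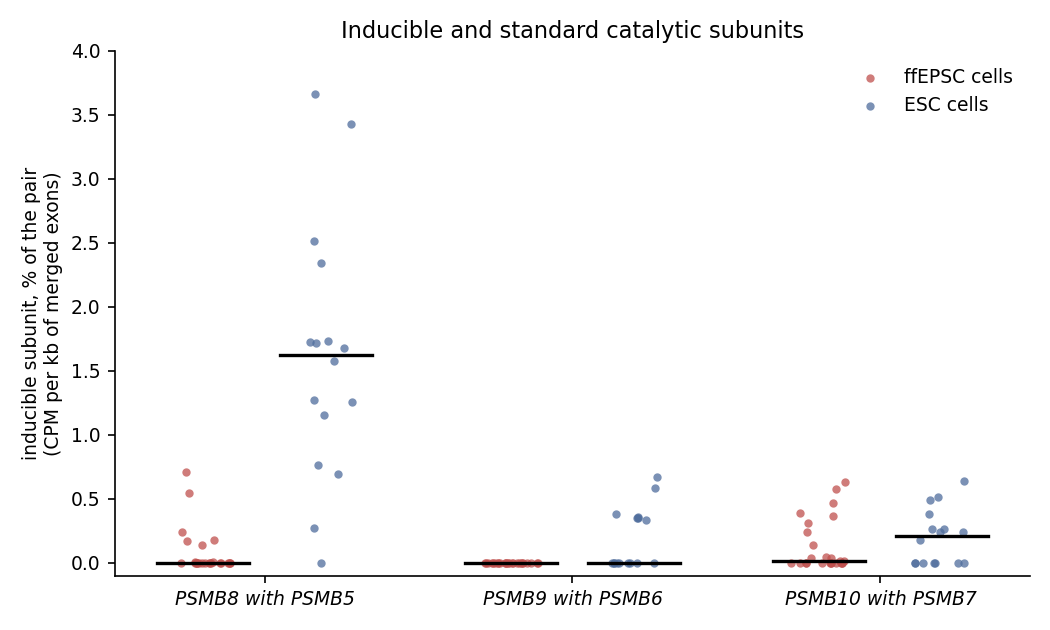
Share of the inducible subunit in its pair with the standard subunit it replaces, in percent of CPM per kilobase of merged exons, for each cell (points) with the median of each state (bars). The PSMB8 share has a median of 0% in ffEPSC cells and 1.63% in ESC cells, whose highest cell reaches 3.67%.

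The heavy chains and their partners differed less and not in the same direction. HLA-C, a classical heavy chain recognised by killer immunoglobulin-like receptors (chromosome 6, 31268749 to 31272130, minus strand), was at 96.3 CPM in ffEPSCs (95.3 to 97.3) and 111 CPM in ESCs (110.1 to 112.6), a log2 ratio of -0.21. Its cells ran from 28.3 over a median of 98.0 to 172 CPM in ffEPSCs, inside the ESC range of 11.6 over 113 to 179 CPM. Within set 1 its ratio was 0.47 and within set 3 it was -0.83, so its direction differed between sets. HLA-B, the other classical chain among the 9 (31269491 to 31357188, minus strand), was at 9.85 CPM in ffEPSCs and 11.1 CPM in ESCs (-0.16), with cells from 0 over 9.98 to 25.4 CPM in ffEPSCs and from 0 over 8.94 to 28.9 CPM in ESCs, which overlap almost wholly. Leaving out the ESC cell with the most HLA-B turned its ratio to 0.01, and it was -1.80 within set 3. HLA-E, a heavy chain that presents leader peptides of other class I chains to natural killer receptors (30489467 to 30494205, plus strand), was the only measured member with a ratio above 0. It was at 43.4 CPM in ffEPSCs (42.8 to 44.1) and 24.9 CPM in ESCs (24.3 to 25.5), a log2 ratio of 0.78. HLA-E ran from 6.52 over a median of 42.3 to 74.4 CPM in ffEPSC cells and from 0 over 22.2 to 50.9 CPM in ESC cells. The states overlapped, with 20 of 25 ffEPSC cells above the ESC median and 9 above every ESC cell. Within set 1 the ratio was 0.36, and within set 3 it was -0.05.

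Summed over HLA-B, HLA-C and HLA-E, heavy chain levels ran from 34.8 over a median of 154 to 223 CPM in ffEPSC cells and from 30.8 over 162 to 208 CPM in ESC cells. The states overlapped over nearly the whole range. Heavy chains are closely related genes, H9 alleles can differ from the reference sequence, and the sources used here do not say how reads that match several of them were counted. The level of each chain is uncertain to that extent. Among the relatives of the heavy chains, PROCR, the endothelial protein C receptor gene, passed 2-fold toward higher (23.1 CPM in ffEPSCs and 7.10 CPM in ESCs, 1.57, but 0.74 within set 3). HLA-F was at 2.18 CPM in ffEPSCs and 1.84 CPM in ESCs. HLA-G, the chain of extravillous trophoblast, had 38 counts in ffEPSCs, 36 of them in 1 cell, and 4 counts in ESCs.

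B2M, the light chain that every class I heavy chain here needs (chromosome 15, 44711487 to 44718877, plus strand), was at 182 CPM in ffEPSCs (180.2 to 182.9) and 264 CPM in ESCs (262 to 266), a log2 ratio of -0.54. It ran from 56.6 over a median of 189 to 317 CPM in ffEPSC cells and from 95.5 over 256 to 996 CPM in ESC cells. The states overlapped, with 20 of 25 ffEPSC cells below the ESC median. The ESC cell at 996 CPM held 16.7% of the ESC counts, and without it the ratio was -0.34. The ratio was -1.42 within set 1, which holds that cell, and -0.22 within set 3. TAPBP, the tapasin gene (chromosome 6, 33299694 to 33314387, minus strand), was at 14.4 CPM in ffEPSCs and 21.0 CPM in ESCs (-0.51). Its cells ran from 0 over 16.9 to 32.1 CPM in ffEPSCs and from 0 over 17.3 to 56.1 CPM in ESCs. The medians were close, and the difference of medians on the log2 scale was -0.01, while 4 ESC cells lay above every ffEPSC cell. The TAPBP ratio was -1.13 in set 1 and -0.84 in set 3.

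**Figure D3:**
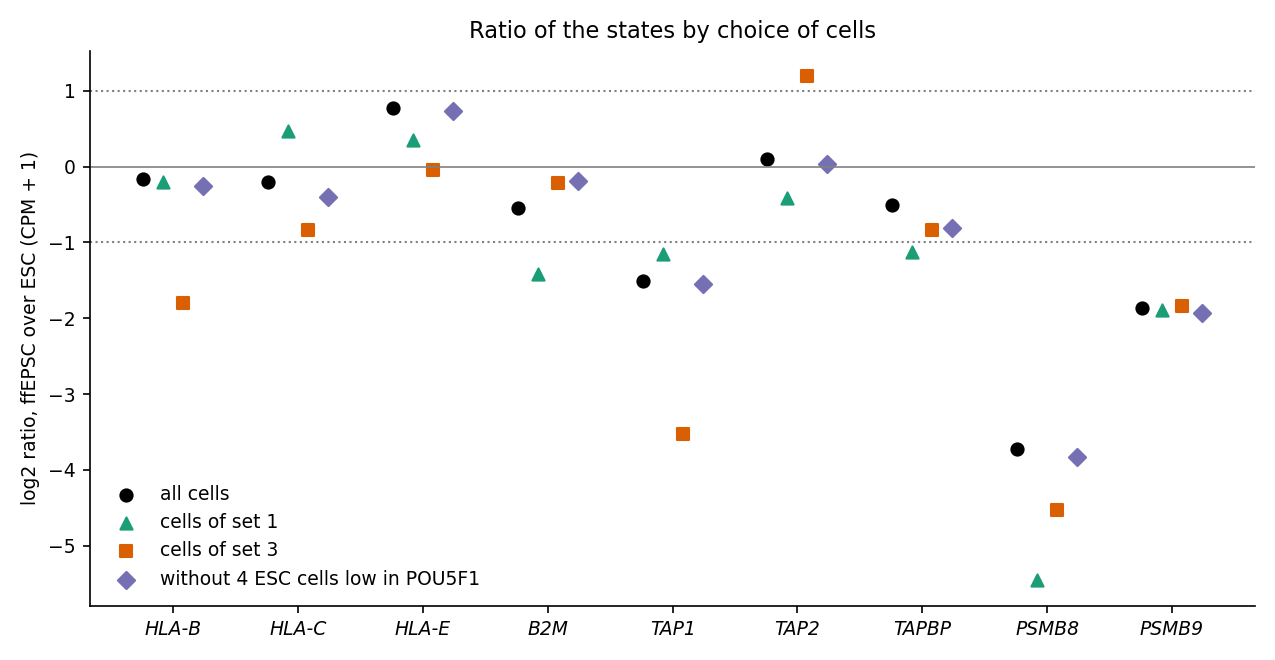
Log2 ratio of ffEPSC over ESC (vertical axis, CPM + 1) for each gene with all cells, within set 1, within set 3, and leaving out 4 ESC cells with little POU5F1, with dotted lines at 2-fold. PSMB8, PSMB9 and TAP1 lie below -1 with each choice of cells, while HLA-C lies at 0.47 in set 1 and -0.83 in set 3.

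Per kilobase of merged exons the order of the levels was led by HLA-C and B2M in both states, at 38.4 and 29.9 CPM per kilobase in ffEPSCs and 44.4 and 43.5 CPM per kilobase in ESCs. With principal transcripts, B2M came before HLA-C in both states. PSMB8 had rank 7 in ffEPSCs at 0.496 CPM per kilobase and rank 3 in ESCs at 10.7 CPM per kilobase, the largest change of rank among the 9. In ESCs the ranges over cells of PSMB8 and HLA-E overlapped, as did those of HLA-C and B2M in both states, so the order of these neighbours is not set apart from their spread. TAP2 and PSMB9 came last in both states.

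Variation among ESC cells touched several of these genes together. In 4 ESC cells POU5F1, the OCT4 gene, was at 63.5 to 218 CPM, while the other 12 had at least 496 CPM. B2M was at 303 to 996 CPM in the 4 cells and 95.5 to 323 CPM in the other 12, TAPBP at 0 to 1.5 CPM in the 4 and 1.67 to 56.1 CPM in the 12, and HLA-C at 11.6 to 106 CPM in the 4 and 49.8 to 179 CPM in the 12. High B2M went with low HLA-C in these 4 cells, with 1 exception. That cell had 303 CPM of B2M and 106 CPM of HLA-C, both inside the range of the other 12. TAPBP was nearly absent in all 4. The 4 cells were also the shallowest, at 11714517 to 14683949 counts against 16349317 to 19965639. The part of depth or RNA quality in this was not tested. PSMB8 was at 6.81 to 40.8 CPM in the 4 cells, inside the range of the other 12. Without the 4 cells the ratio of B2M was -0.18, of TAPBP -0.80 and of HLA-C -0.40, while PSMB8 stayed at -3.83, TAP1 at -1.55 and HLA-E at 0.73.

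**Figure D4:**
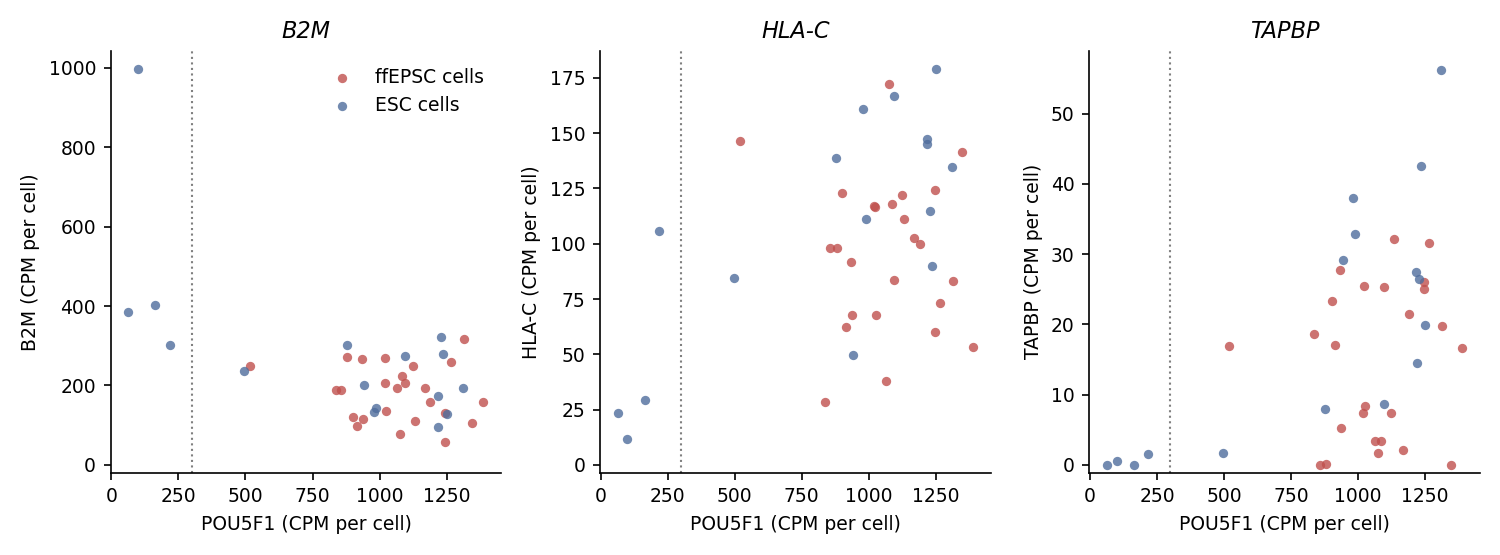
CPM per cell of B2M, HLA-C and TAPBP (vertical axes) against POU5F1 (horizontal axis), for ffEPSC cells and ESC cells, with a dotted line at 300 CPM of POU5F1. The 4 ESC cells left of the line have 303 to 996 CPM of B2M and at most 1.5 CPM of TAPBP, and no ffEPSC cell lies left of it.

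Over 25 ffEPSC cells the 10 pairs of the 5 genes read in most cells of both states (HLA-B, HLA-C, HLA-E, B2M and TAPBP) had Pearson r of log2(CPM + 1) from -0.21 upward, with a median of 0.01 and the highest values for HLA-B with HLA-E (0.60, Spearman rho 0.46) and HLA-C with HLA-E (0.41, rho 0.16). Over the 12 ESC cells not low in POU5F1, r was -0.30 for HLA-C with B2M, 0.02 for HLA-C with TAPBP and -0.23 for B2M with TAPBP. The cells of a state share a deposited sample, the other 7 pairs were not computed in those 12 cells, and these values are descriptions. Over all 41 cells, centred within state, genes most like the mean of the members included TFIP11 (r = 0.65), GMDS (0.63), PIP4K2A (0.60) and ALG1 (0.60). The 3 genes most like B2M alone were STMP1 (0.75), ABRACL (0.72) and ATP5PF (0.66). Of these 3, 1 (STMP1) was again among the top 3 in ffEPSC cells alone and 0 in ESC cells alone, so the likeness rests on the choice of cells.

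The rest of the loading machinery held both scarce and abundant transcripts, from ERAP1 to PDIA3 (1121 CPM in ffEPSCs and 1252 CPM in ESCs). Of 20 measured genes of peptide loading and trimming, 0 passed 2-fold toward lower (5.84% of all genes at the floor) and 2 toward higher (8.30%). The median log2 ratio was 0.03. The number toward higher was 1 when the 4 ESC cells with little POU5F1 were left out, 4 in set 1 and 5 by medians over cells. In set 1, 17.8% of all genes at the floor passed 2-fold toward higher. The higher genes were LNPEP, an aminopeptidase of cross-presentation (15 CPM in ffEPSCs and 3.13 CPM in ESCs, 1.95), and GANAB, the glucosidase II subunit that trims glycans for the calnexin cycle (201 CPM in ffEPSCs and 83.3 CPM in ESCs, 1.26). The chaperone gene CANX was at 939 CPM in ffEPSCs and 486 CPM in ESCs (0.95), with all 25 ffEPSC cells above the ESC median. CALR (-0.25) and PDIA3 (-0.16), its partners in the loading complex, differed less. ERAP1, the aminopeptidase that trims peptides in the endoplasmic reticulum, was under the floor at 1.62 CPM in ffEPSCs and 4.74 CPM in ESCs (-1.13, and -1.20 and -1.53 within sets 1 and 3).

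Of 20 measured regulators of class I transcription, 0 passed 2-fold toward lower (5.84% of all genes at the floor) or toward higher (8.30%). The median was -0.20. Toward lower, 2 passed it in set 1 (11.3% of all genes at the floor in that set) and 5 in set 3 (14.8%). Under the floor, IRF9, part of the factor that carries the type I interferon signal, had 450 counts from 9 of 25 ffEPSC cells and 2 counts from 1 of 16 ESC cells, and was chosen for naming after its values were seen. Its log2 ratio after adding 1 CPM was 1.13, with 2.52 in set 1 and -0.02 in set 3. Only 3 ffEPSC cells reached 1 CPM, the highest at 14.2 CPM. Without the added CPM its ratio of levels was 160 (log2 interval 5.46 to 10.4 for counting error), which rests on the 2 ESC counts. NLRC5, the class I transactivator, was at 0.925 CPM in ffEPSCs from 5 of 25 cells and 0.309 CPM in ESCs from 2 of 16 cells, and CIITA, the class II transactivator, was at 0.535 CPM in ffEPSCs and 1.07 CPM in ESCs. The cell with the most NLRC5 held 43.9% of its counts in ffEPSCs and 95.1% in ESCs. For CIITA the top cell held 53.0% in ffEPSCs and 88.0% in ESCs. The interferon-responsive factor IRF1 was at 2.76 CPM in ffEPSCs and 4.72 CPM in ESCs (-0.60), and RFX5, part of the complex that binds class I and class II promoters, was at 20.9 CPM in ffEPSCs and 28.3 CPM in ESCs (-0.42). The log2 ratio of RFX5 was 0.12 in set 1 and -1.01 in set 3. That of IRF1 was -1.12 in set 1 and -2.99 in set 3, and 39.5% of its ffEPSC counts lay in 1 cell. Of 8 measured genes of interferon receptors and their signalling, 1 passed 2-fold toward higher (8.30% of all genes at the floor) and 0 toward lower (5.84%). The higher one was TYK2, a kinase of the interferon alpha receptor (23 CPM in ffEPSCs and 8.07 CPM in ESCs, 1.40, but 0.33 within set 3). IFNGR1 (-0.09) and JAK1 (-0.02), which carry the interferon gamma signal, were nearly level, and the list's median was -0.06.

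In the MHC region of chromosome 6, lower values were grouped in the class II stretch that holds PSMB8, PSMB9, TAP1 and TAP2. Between HLA-DRA and HLA-DPB1 (32439842 to 33087201), 7 of 8 measured genes were lower in ffEPSCs (47.1% of all genes at the floor). At least 2-fold lower were 4 of the 8 (5.84% of all genes at the floor). These were PSMB8 and TAP1 with HLA-DOA, an inhibitor of class II loading (1.31 CPM in ffEPSCs and 11.7 CPM in ESCs, -2.46), and HLA-DPB1, a class II beta chain (17.0 CPM in ffEPSCs and 36.8 CPM in ESCs, -1.07). The HLA-DPB1 ratio was -0.14 within set 3. PSMB8, TAP1, HLA-DOA, HLA-DMA and HLA-DQB1 reached the floor through ESCs alone, so the floor favours a lower call for them. BRD2, a bromodomain gene between HLA-DMA and HLA-DOA, was at 84.1 CPM in ffEPSCs and 64.2 CPM in ESCs (0.39, but -0.24 within set 3). Outside that stretch the 71 measured genes of the region had a median of 0.10. The long non-coding RNA LINC02570 passed 2-fold toward lower there (-1.29), and 4 genes passed it toward higher (8.30% of all genes at the floor). The higher ones were MOG (2.74), RXRB (1.83), LY6G5C (1.3) and PBX2 (1.06), of which MOG was at -1.31 within set 3 and LY6G5C at -1.88 within set 1. Leaving out the 9 genes, the region had 73 measured genes with a median of 0.08, and the medians over the 563 measured genes of chromosome 6 and the 329 of chromosome 15 were -0.09 and -0.08. The spans of PSMB8, PSMB9 and TAP1 overlap on opposite strands in the annotation, and that of HLA-B overlaps HLA-C. The sources used here do not say whether strand was used in counting, so reads in the shared stretches cannot be told apart.

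**Figure D5:**
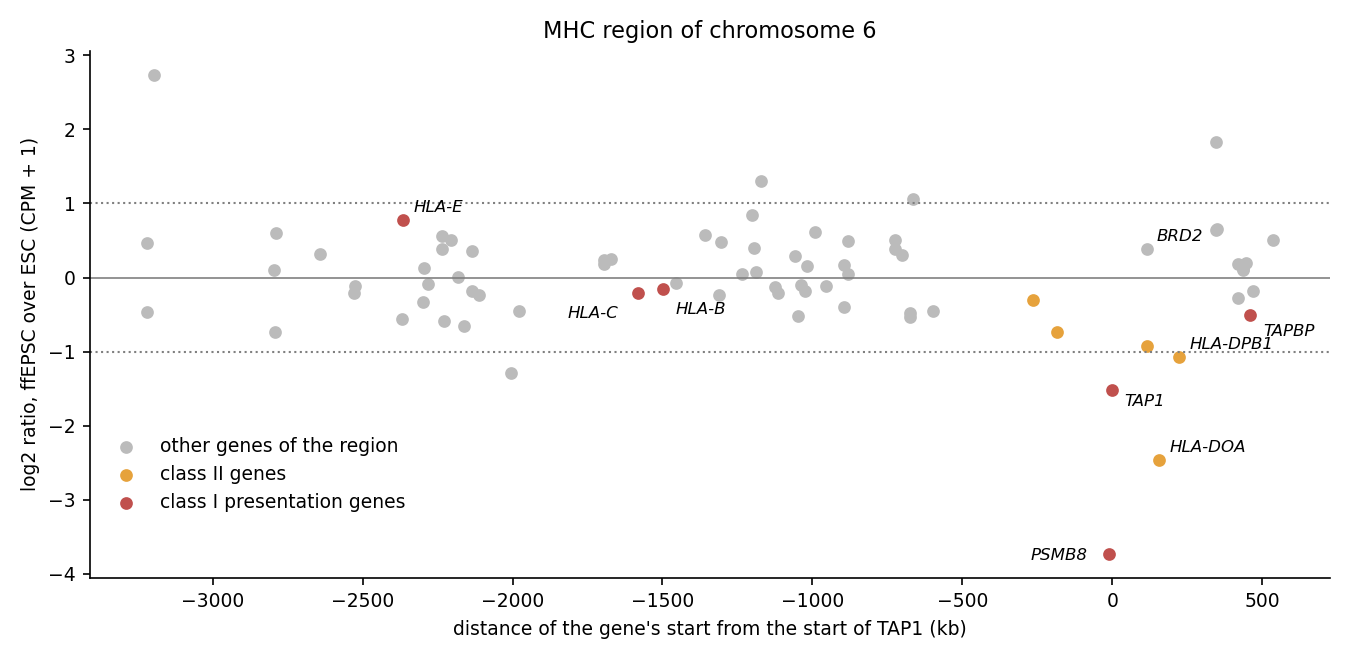
Log2 ratio of ffEPSC over ESC (vertical axis, CPM + 1) of measured genes of the MHC region against the distance of each gene's start from the start of TAP1 in kilobases (horizontal axis), with dotted lines at 2-fold. PSMB8 at -3.73 and TAP1 at -1.51 lie among class II genes below 0, while BRD2 nearby lies at 0.39.

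Genes of the class II pathway were lower too. Of 6 measured genes of that list, 3 passed 2-fold toward lower (5.84% of all genes at the floor) and 0 toward higher (8.30%). HLA-DQB1, HLA-DMA, HLA-DOA and CD74 reached the floor through ESCs alone, so the floor favours a lower call for them. The median of the 6 was -0.999, beside list medians of -2.43 in set 1 and -1.62 in set 3. CD74, the invariant chain that guides class II molecules, lies on chromosome 5 and was at 3.49 CPM in ffEPSCs and 71.4 CPM in ESCs (-4.01). All 25 ffEPSC cells (0 to 17.4 CPM) lay below all 16 ESC cells (24.3 to 130 CPM), as did the cells of 0.111% of the 10825 genes. The other genes at least 2-fold lower were HLA-DOA and HLA-DPB1. CD74 and the class II chains also mark leukocytes, whose other markers PTPRC, CD14, CD68 and CD3E are not in the tables and are not analysed here.

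Both states carried pluripotency markers, 7 of which summed to 1919 to 4789 CPM per ffEPSC cell and 725 to 3065 CPM per ESC cell. The 4 listed markers of a naive-like state, which neither label names, summed to 14.5 to 1202 CPM per ffEPSC cell and 0 to 36.8 CPM per ESC cell, so the states overlapped in them. Of 8 fibroblast or feeder markers 5 were listed, none at 0 in a state, and they summed to 47.6 to 414 CPM in ffEPSC cells (median 212) and 143 to 765 CPM in ESC cells (median 514). The 3 listed leukocyte markers summed to 0 to 17.4 CPM in ffEPSC cells and 24.3 to 138 CPM in ESC cells, nearly all of it CD74. The 3 listed trophoblast markers reached at most 16.9 CPM in ffEPSC cells and 24.5 CPM in ESC cells, and the only listed endothelial marker, KDR, 216 CPM in ffEPSC cells and 153 CPM in ESC cells. The medians of the fibroblast and leukocyte lists were thus higher in ESCs, as were the levels of PSMB8, PSMB9 and TAP1, and their part in those differences was not tested. Total gene counts per cell ran from 12507469 to 17811209 in ffEPSCs and from 11714517 to 19965639 in ESCs.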

How the data were processed

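The authors deposited whole-number gene counts per cell, without normalization. Tools listed in the submitters' processing notes are HISAT2 2.2.1, Subread 2.0.6, featureCounts, bcl2fastq and SAMtools 1.6, with T2T-CHM13 and GRCh38 as builds. Annotation, strand and the treatment of reads with several matches: not given in the sources used here. Repeat tables were not used. Some genes that the naming rule selects are not reported here. The 25 ffEPSC and 16 ESC cells share 0 cell names, and no cell was left out. Doublets were not called and cells were not clustered.

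Counts were summed per state and scaled to CPM with Python 3.11.15, numpy 2.4.6, pandas 2.3.3 and scipy 1.17.1. Intervals are 95% exact Poisson for levels and exact conditional binomial for a ratio of levels. They cover counting error only, since amplified reads are not independent molecules, and 98.4% of non-zero counts in ffEPSC cells and 98.5% in ESC cells were even, which is what counting both mates of a fragment would give, so the intervals are too narrow. The steps were tested on simulated data, with differences planted only in genes at 20 CPM or more in ESCs. Levels as low as those of TAP1 and PSMB9 were therefore not covered.

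The 9 genes, the other lists, the split at 300 CPM of POU5F1 and the alternatives were chosen with earlier results of these data known. Named genes were the 9, further chains, 15 genes in any case, and up to 4 list members per direction past 2-fold. Coordinates and exon lengths come from GENCODE 29 (GRCh38), which matched 21240 listed genes. Alternatives were other scalings, pseudocounts, floors, cell sets and leaving out each cell in turn.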

Additional observations from a re-analysis of the deposited data

How the results depend on the processing

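No paired analysis was possible because each state is 1 sample. The median log2 ratio of the measured members was -0.51. It was -0.37 with the mean over cells of CPM, -0.20 as the difference of medians over cells, -1.13 within set 1, -0.84 within set 3 and -0.40 when the 4 ESC cells with little POU5F1 were left out. The cause was not tested. Leaving out each cell in turn gave -0.56 to -0.34. The number of members at least 2-fold lower was 2, and it was 2 without any one of the cells. It was 4 in set 1 alone, where 11.3% of all genes at the floor were at least 2-fold lower. With 20 CPM as the floor, which TAP1 does not reach, it was 1. The number of measured members at least 2-fold higher was 0 with all alternatives. TAP1 and PSMB8 stayed past 2-fold in all 10 alternatives run for each, from -3.53 to -1.16 and from -5.46 to -3.60. PSMB9, below the floor, stayed past 2-fold in 9 of 10, and its difference of medians over cells was 0 because most ESC cells also had no reads. HLA-B, HLA-C and HLA-E each changed sign in at least 1 alternative (from -1.80 to 0.15, -0.83 to 0.47 and -0.05 to 0.90). Median-of-ratios and TMM scaling moved the median of all genes to -0.02 and 0.00. Of 108 alternative values of the list medians, 55 differed from the value reported by more than the counting error of the median member. Each state is 1 sample, so depth narrows the counting error but not the unknown spread between cultures.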

Other observations

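Of 9 measured genes listed under class I turnover and checkpoints, 2 passed 2-fold toward higher in ffEPSCs (8.30% of all genes at the floor). Toward lower, 1 passed it (5.84%). The lower one is HLA-DOA, which is known as a class II loading inhibitor and is also counted among the class II genes. The median log2 ratio was 0.06, with 0.43 in set 1 and -0.61 in set 3. The higher ones encode ligands of the activating receptor DNAM-1 and of TIGIT: PVR was at 44.9 CPM in ffEPSCs and 15.7 CPM in ESCs (1.46, and 2.30 and 1.74 within sets 1 and 3), and NECTIN2 at 31.0 CPM in ffEPSCs and 14.8 CPM in ESCs (1.02, but -0.39 within set 3). With median-of-ratios scaling 1 of the list passed 2-fold toward higher. For PVR, 22 of 25 ffEPSC cells lay above the ESC median, and 6 lay above every ESC cell. Of 3 stress ligands chosen for naming after their values were seen, MICA was at 19.2 CPM in ffEPSCs and 20.1 CPM in ESCs (-0.07, with -1.0 in set 1 and 0.27 in set 3). MICB was at 28.9 CPM in ffEPSCs and 19.2 CPM in ESCs (0.57, with 0.37 in set 1 and 1.14 in set 3). ULBP1, under the floor, had 858 counts from 5 of 25 ffEPSC cells and 4 counts from 1 of 16 ESC cells. The ffEPSC cells of sets 1 and 3 had 0 CPM of ULBP1, and its log2 ratio was 0 in set 1 and -0.04 in set 3.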
